A study of Mus musculus with 12 samples.

Results

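Hepatic expression of 10 antigen presentation genes was examined among the 12393 genes of a mouse liver expression table. Of these, 6 belong to class I processing, namely B2m, Tap1, Tap2, Tapbp, Psmb8 and Psmb9, and 4 to class II presentation, namely Cd74, H2-Aa, H2-Ab1 and H2-Eb1. The genes were chosen by name, and each was represented by the probe set with the highest mean that the platform annotation assigns to it alone. Liver RNA of 12 male mice was hybridized to Affymetrix mouse genome arrays, 1 array per mouse, with 3 arrays in each of 4 groups. The groups were wild type mice fed normal diet (WT), wild type mice given all-trans retinoic acid (RA) in the diet at 150 mg/kg for 7 days (WT_RA), hepatocyte RXRα-deficient mice on the normal diet (KO), and such mice given the same RA diet (KO_RA). Both genotypes were on the C57BL/6 background, and the wild type mice were 12 weeks old. In KO mice, Cre driven by the albumin promoter removed the fourth exon of the floxed RXRα gene, which encodes part of the DNA-binding domain, so that hepatocytes still make a truncated protein and other liver cells keep the intact gene. The sample titles call the arrays biological replicates. Values are log2 expression, and a difference of 1 corresponds to a doubling.

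Class I molecules display peptides from inside nearly every nucleated cell to cytotoxic T cells. Proteasomes cut proteins into peptides, and under interferon gamma the catalytic subunits Psmb8, Psmb9 and Psmb10 take the places of the constitutive Psmb5, Psmb6 and Psmb7. Tap1 and Tap2 form the transporter that carries the peptides into the endoplasmic reticulum, Tapbp (tapasin) holds the empty class I molecule at that transporter, and B2m (β2-microglobulin) is the light chain of the finished molecule. Class II molecules present peptides from ingested material to helper T cells and are made mainly by dendritic cells, B cells and activated macrophages, including Kupffer cells of the liver. H2-Aa and H2-Ab1 encode the chains of the I-A molecule, H2-Eb1 the beta chain of I-E, and Cd74 the invariant chain that guides class II molecules and blocks their groove until peptide loading. Interferon gamma raises both sets, through Irf1 among other factors and, for class II, through the coactivator Ciita.

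The sequence before the start of 2 class I and 2 class II genes is shown because these windows carry, or lack, the letters of the elements through which the pathway is known to be read. Each line holds the 250 bases before the RefSeq gene start on build GRCm38.p6, 5′ to 3′ on the strand of the gene. Capitals mark matches to searched motifs on either strand. B2m lies on the plus strand at chr2:122147437-122147686, Tap1 on the plus strand at chr17:34187306-34187555, H2-Aa on the minus strand at chr17:34287824-34288073 and H2-Eb1 on the plus strand at chr17:34305617-34305866.
B2m: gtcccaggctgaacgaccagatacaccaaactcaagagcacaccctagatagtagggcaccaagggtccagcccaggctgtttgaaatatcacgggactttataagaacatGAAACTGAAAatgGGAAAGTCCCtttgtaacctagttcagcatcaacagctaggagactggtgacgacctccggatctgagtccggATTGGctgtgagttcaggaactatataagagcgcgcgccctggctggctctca
Tap1: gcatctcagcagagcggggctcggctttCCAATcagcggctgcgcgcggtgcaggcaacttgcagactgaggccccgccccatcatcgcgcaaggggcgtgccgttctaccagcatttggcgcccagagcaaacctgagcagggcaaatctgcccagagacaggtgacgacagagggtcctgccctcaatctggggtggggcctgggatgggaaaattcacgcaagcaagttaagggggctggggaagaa
H2-Aa: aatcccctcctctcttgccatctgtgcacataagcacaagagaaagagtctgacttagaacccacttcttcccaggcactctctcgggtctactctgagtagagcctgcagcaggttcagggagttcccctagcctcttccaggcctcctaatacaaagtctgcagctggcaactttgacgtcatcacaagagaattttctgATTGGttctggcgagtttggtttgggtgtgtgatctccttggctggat
H2-Eb1: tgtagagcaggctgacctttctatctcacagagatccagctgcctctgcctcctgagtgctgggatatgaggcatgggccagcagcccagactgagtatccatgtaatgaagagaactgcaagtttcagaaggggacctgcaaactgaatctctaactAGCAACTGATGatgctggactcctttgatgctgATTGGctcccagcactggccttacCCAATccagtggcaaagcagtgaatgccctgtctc

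Promoter windows were found for 7 of the 10 genes, that is, for all but Tap2, H2-Ab1 and Cd74. The interferon-stimulated response element, searched as GAAA, any 2 bases and GAAA, was present in 2.98% of all 32851 windows of this length and among the members in that of B2m, 139 bases before the start. The B2m window also held the NF-kB letters GGGA, any base and TTTCC, read from the opposite strand and starting 126 bases before the start, which occurred in 0.356% of all windows. The class II X box, searched as AG, any 2 bases, AC, any 2 bases and ATG, occurred in 2.6% of windows and stood 92 bases before the start of H2-Eb1. The Y box CCAAT, a short and common motif found in 33.8% of windows, was present for B2m, H2-Aa, H2-Eb1, Psmb9, Tap1 and Tapbp. It stood 48 bases before the start in H2-Aa and 35 and 59 bases before it in H2-Eb1. The gamma-activated site TTCNNNGAA, present in 7.02% of windows, was found for Psmb8 at 97 bases before the start. The direct repeats read by retinoid receptors, searched as AGNTCA repeated after 5 bases (DR5) or after 1 base (DR1), occurred in 0.198% and 0.183% of windows and in none of the 7 member windows. Tap1 and Psmb9 are read in opposite directions from starts 225 bases apart, and their windows share 225 bases.

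The arrays had medians between 6.26 and 6.35 log2 units. WT_RA 3 and KO 1 stood apart at the control probe set for the 3' end of Actb, which read 9.4 and 9.12 there and 12.13 to 12.93 on the other arrays. Since KO 1 belongs to the group on which most of the following results turn, they are also given without it and without both arrays. Whether its RNA quality has a part in its values was not tested. Genes were called where the adjusted p was under 0.05 in limma, a linear model fitted over all genes and all 12 arrays. The model takes 1 spread per gene from all 4 groups, so a wide spread in KO enters the SE and p of every contrast. Under that rule 1.27% of genes were called for RA in wild type mice, 1.32% for RXRα deficiency on the normal diet, 0.5% for RA in KO mice, 3.95% for RXRα deficiency under RA and 0.00807% for the interaction of RA with genotype. Of the 10 antigen presentation genes, 0 were called in each of these comparisons.

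Most of the antigen presentation genes had a wide spread among the KO mice on the normal diet. The immunoproteasome subunit Psmb8 read 8.20, 10.47 and 9.21 on KO 1, 2 and 3, against 8.19, 8.51 and 8.58 in WT, 8.83, 8.45 and 8.80 in WT_RA and 8.44, 8.13 and 8.71 in KO_RA. KO 2 and KO 3 lay above every other array, while KO 1 lay at the lower end of WT. Its partner Psmb9 read 7.77, 10.47 and 9.10 in KO, 7.47, 8.38 and 8.37 in WT, 8.12, 7.71 and 7.99 in WT_RA and 7.63, 7.23 and 7.97 in KO_RA. KO 2 was the highest and KO 3 the next array again, and the KO group overlapped each of the others through KO 1.

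The transporter subunit Tap1 read 7.30, 9.57 and 8.60 on KO 1, 2 and 3, with 7.36, 7.40 and 7.74 in WT, 7.35, 7.36 and 7.44 in WT_RA and 7.05, 6.77 and 7.44 in KO_RA. Its order within KO was that of the immunoproteasome subunits. The other subunit of the transporter, Tap2, read 6.03, 7.51 and 7.10 in KO, 6.98, 6.77 and 6.93 in WT, 7.12, 6.67 and 6.47 in WT_RA and 6.93, 6.92 and 6.95 in KO_RA. Here KO 1 was the lowest of the 12 arrays and WT_RA 3 the next, which are the arrays with the low Actb 3' control.

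Tapasin (Tapbp) read 9.05, 10.64 and 9.71 in KO, 9.41, 9.35 and 9.36 in WT, 9.66, 9.73 and 9.73 in WT_RA and 9.49, 9.44 and 9.59 in KO_RA. KO 2 alone stood clear of the others, and KO 3 lay within the range of WT_RA. The light chain B2m read 13.48, 13.73 and 13.64 in KO, 13.57, 13.51 and 13.52 in WT, 13.44, 13.38 and 13.37 in WT_RA and 13.34, 13.33 and 13.51 in KO_RA. All 12 of its values lay within a narrow band, with the same array order inside KO.

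The class II genes had the same order in KO and a wider spread. Cd74 read 7.40, 11.35 and 9.60 on KO 1, 2 and 3, against 7.74, 7.49 and 8.11 in WT, 7.68, 7.58 and 8.21 in WT_RA and 7.96, 7.53 and 8.34 in KO_RA. KO 2 was thus 15.4-fold above KO 1, which was the lowest array of all. H2-Aa read 7.95, 11.25 and 9.50 in KO, 7.41, 7.41 and 7.99 in WT, 7.33, 7.11 and 8.20 in WT_RA and 7.40, 6.51 and 7.79 in KO_RA. Of the class II genes it was the one whose KO 1 value lay near the top of WT, and all 3 KO arrays were above all 3 KO_RA arrays.

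H2-Ab1 read 7.02, 10.67 and 8.79 in KO, 7.15, 6.93 and 7.25 in WT, 6.81, 6.86 and 7.44 in WT_RA and 6.87, 7.10 and 7.26 in KO_RA. H2-Eb1 read 8.08, 11.15 and 9.61 in KO, 8.13, 7.92 and 8.45 in WT, 8.10, 8.09 and 8.31 in WT_RA and 8.38, 8.22 and 8.57 in KO_RA. For both genes KO 2 and KO 3 exceeded every array of the other groups and KO 1 lay inside the WT range. In bulk liver, fewer cells of a type and less RNA per cell cannot be told apart, so a level does not say how many class II-bearing cells a sample held.

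**Figure D1:**
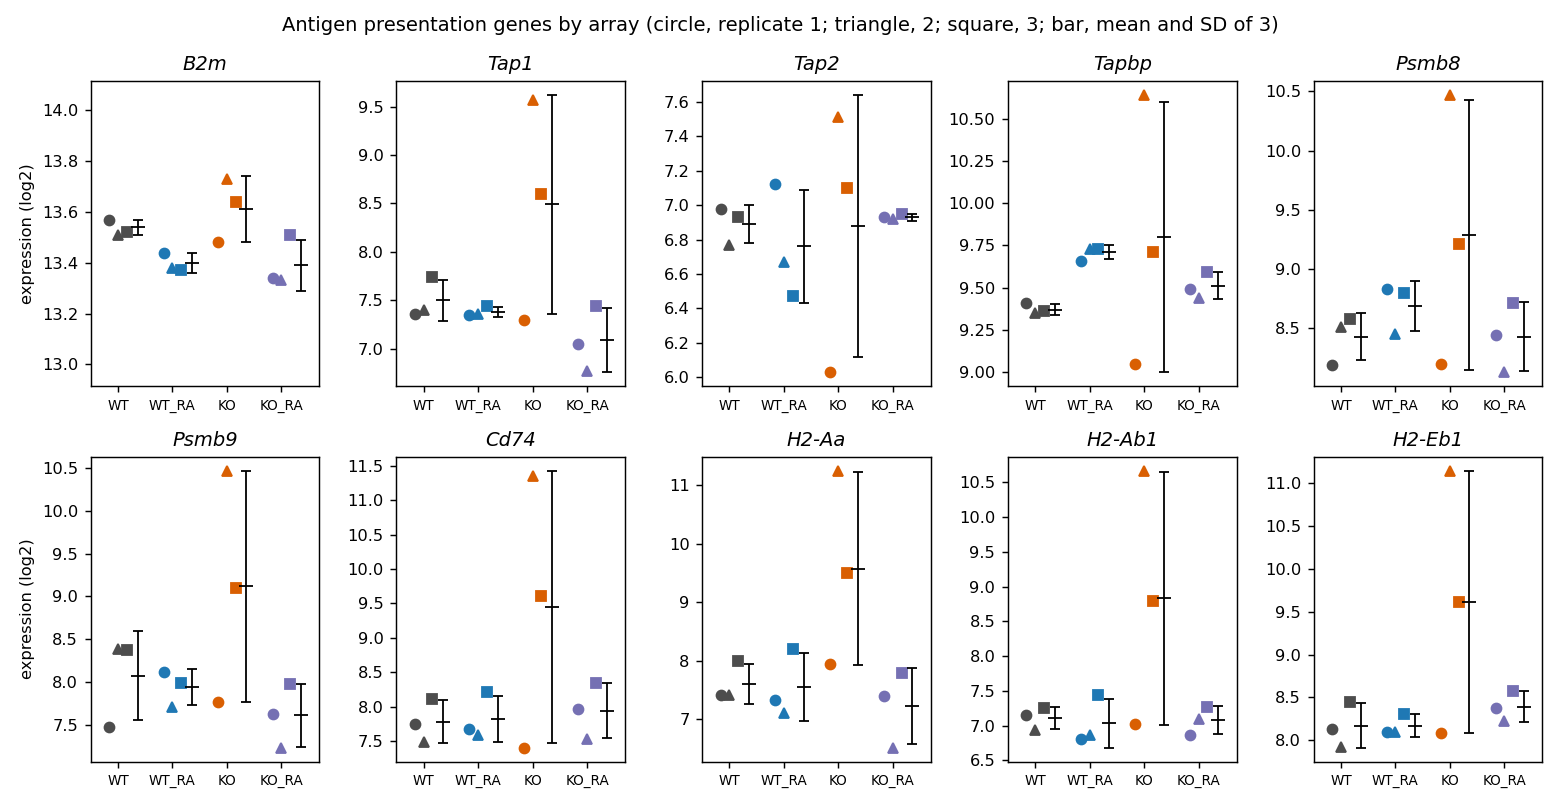
Expression of the 10 antigen presentation genes on each array, in log2 units with a separate vertical scale per gene. Points are arrays, black bars the mean and SD of the 3 arrays of a group. KO 2 (triangle) is the highest array for all 10 genes, KO 3 (square) is the next of all 12 arrays for 8 of them, and KO 1 (circle) lies below the WT mean for 9.

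The SD within KO was 1.98 for Cd74, 1.82 for H2-Ab1, 1.65 for H2-Aa and 1.53 for H2-Eb1, whereas the largest SD of these genes in any other group was 0.65. Ranked by the SD among KO arrays over all 12393 genes, they stood at positions 7, 11, 17 and 21. The immunoproteasome subunits and Tap1 followed with SDs of 1.35 for Psmb9, 1.14 for Psmb8 and 1.13 for Tap1, at positions 36, 58 and 61. Tapbp (0.80, position 146) and Tap2 (0.76, position 167) varied less, and B2m, with an SD of 0.13 and position 6511, equalled the median SD of all genes in KO, which was 0.13. Genes outside the 10 also had wide SDs in KO. Among known interferon targets these were 2.49 for Gbp6, 1.89 for Gbp3 and 1.81 for Igtp. Among the macrophage markers described below they were 1.42 for C1qb and 1.38 for C1qc. The median SD of all genes was 0.13 in WT, 0.12 in WT_RA and 0.11 in KO_RA. By this median the KO group equalled WT and lay slightly above the RA groups. A median does not describe the most variable genes.

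Relative to the WT mean, KO 2 was 12.5-fold higher for H2-Aa, 11.9-fold for Cd74, 11.8-fold for H2-Ab1 and 7.92-fold for H2-Eb1. The class I genes on the same array were 5.27-fold higher for Psmb9, 4.18-fold for Tap1, 4.13-fold for Psmb8, 2.41-fold for Tapbp, 1.54-fold for Tap2 and 1.14-fold for B2m. KO 3 had the same division, from 2.72-fold to 3.74-fold for class II and from 1.07-fold to 2.15-fold for class I. On KO 1 the ratio to the WT mean was between 0.551 and 0.959 for the class I genes and between 0.769 and 1.28 for class II.

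Class I and class II were set against each other as the mean deviation of their genes from the WT mean on each array. On KO 2 the class I level was 1.43 and the class II level 3.44, and on KO 3 they were 0.60 and 1.71. On KO 1 they were -0.33 and -0.05, while the arrays of the other groups lay between -0.33 and 0.12 for class I and between -0.32 and 0.38 for class II. Class II thus exceeded class I by 2.01 on KO 2, by 1.11 on KO 3 and by 0.28 on KO 1. In the other groups this difference lay between -0.31 and 0.38, a range that includes KO 1. As group means, class II minus class I was 1.13 ± 0.86 in KO, -0.03 ± 0.36 in WT_RA and 0.14 ± 0.13 in KO_RA (SD, n = 3), with WT at 0 by construction. Leaving out KO 1 gave 1.56 and leaving out KO 2 gave 0.70. These levels average genes chosen with earlier results known and were given no test.

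**Figure D2:**
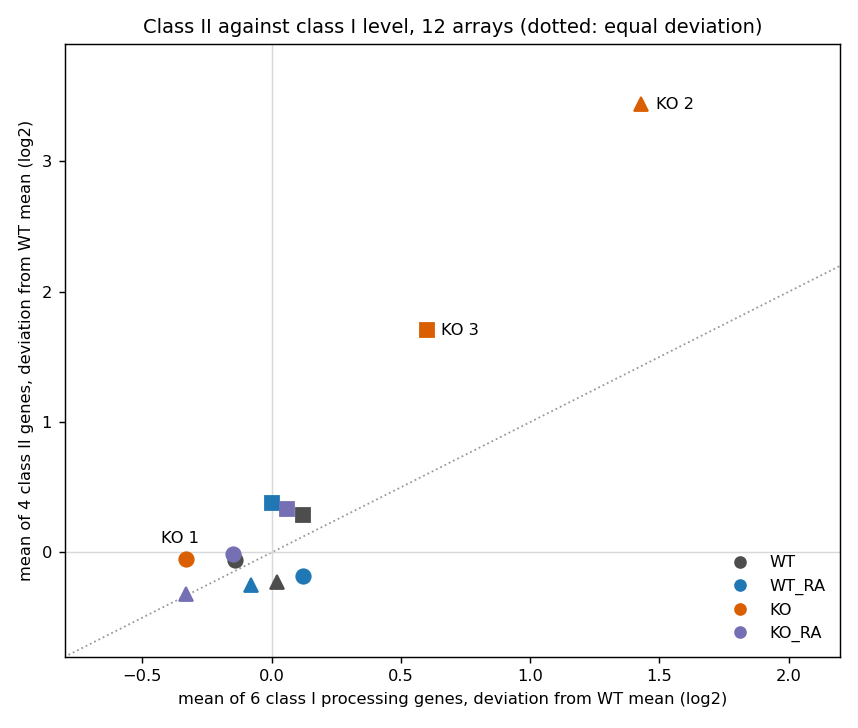
Mean log2 deviation from WT of the 4 class II genes (vertical) against that of the 6 class I processing genes (horizontal), 1 point per array. KO 2 (1.43 and 3.44) and KO 3 (0.60 and 1.71) lie far above the dotted line of equal deviation, and the other 10 arrays, KO 1 among them, lie close to the origin.

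The first comparison asked how hepatocyte RXRα deficiency related to these genes on the normal diet. Mean levels in KO were above WT for 9 of the 10 genes, with a median log2 difference of 1.69 over the class II genes and 0.65 over the class I genes, while the median over all genes was 0.024. H2-Aa had the largest difference, 1.97 ± 0.64 (SE, n = 3 per group), or 3.91-fold, and limma's adjusted p was 0.162. The difference was 1.71 ± 0.63 for H2-Ab1 (adjusted p = 0.21), 1.67 ± 0.69 for Cd74 (adjusted p = 0.262) and 1.45 ± 0.53 for H2-Eb1 (adjusted p = 0.208). All 4 class II genes were below an unadjusted p of 0.05, and 0 passed the adjustment. Their SDs were 1.53 to 1.98 in KO and 0.16 to 0.34 in WT. The spread that the model shares over the groups is narrower than that of KO, which makes these unadjusted p-values favourable. With only KO and WT in the fit, 0 of the 10 genes were called as well.

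Among the class I genes, Psmb9 differed by 1.05 ± 0.51 (adjusted p = 0.329), Tap1 by 0.99 ± 0.41 (adjusted p = 0.258) and Psmb8 by 0.87 ± 0.41 (adjusted p = 0.317). Tap1 was the only one of the 6 with an unadjusted p under 0.05, at 0.0315. Tapbp differed by 0.43 ± 0.28 (adjusted p = 0.452), B2m by 0.08 ± 0.09 (adjusted p = 0.665) and Tap2 by -0.01 ± 0.29 (adjusted p = 0.991). In all, 5 of the 10 genes had an unadjusted p under 0.05 with this shared spread, where 16.3% of all genes did. The groups overlapped for each of the 10 genes, while they did not overlap for 20.1% of all genes.

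The outcome of this comparison depended on 1 array. Without KO 1, 7 of the 10 genes were called higher in KO, against 1.75% of all genes. They were Cd74 at 2.69 (limma adjusted p = 0.00895), H2-Aa at 2.77 (0.0206), H2-Ab1 at 2.62 (0.00895), H2-Eb1 at 2.21 (0.00839), Tap1 at 1.58 (0.00989), Psmb8 at 1.41 (0.0429) and Psmb9 at 1.72 (0.0488). With WT_RA 3 left out as well, 6 were called, Psmb9 no longer being one of them at an adjusted p of 0.0539, against 2.15% of all genes. Without KO 2, on the other hand, the differences shrank to 1.13 for H2-Aa, 0.79 for H2-Ab1, 0.72 for Cd74, 0.68 for H2-Eb1 and 0.45 for Tap1, and 0 were called. The median difference was then 0.76 for class II and 0.15 for class I. B2m, Tap2 and Tapbp were called in none of these fits. Leaving out KO 1 leaves 2 KO arrays, and the calls then rest on the remaining arrays of all groups for their spread.

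**Figure D3:**
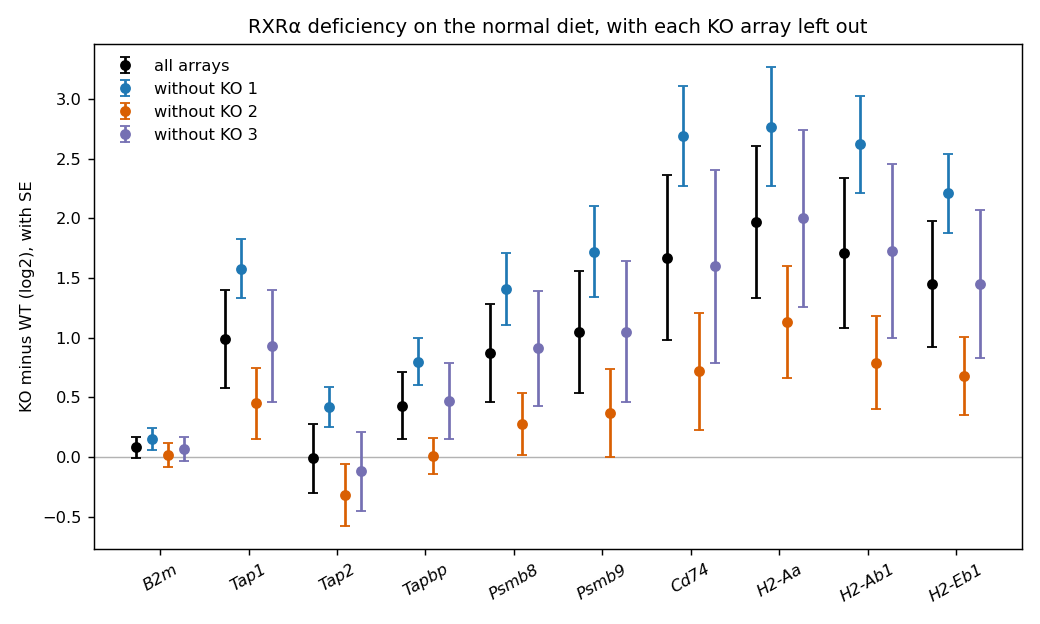
Log2 difference between KO and WT for the 10 genes with all arrays and with each KO array left out in turn. Points are limma estimates and bars their SE. The class II differences run from 0.68 to 1.13 without KO 2 and from 2.21 to 2.77 without KO 1, while B2m stays near 0 in every fit.

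The second comparison asked what RA treatment was associated with in mice lacking hepatocyte RXRα. KO_RA arrays lay near the WT level for class II, and the means were below KO for 9 of the 10 genes, with a median difference of -1.63 for class II, -0.58 for class I and -0.028 over all genes. H2-Aa differed by -2.34 ± 0.64, a 5.05-fold lower level, and limma's adjusted p was 0.128. It was the only one of the 10 genes whose KO and KO_RA arrays did not overlap, a condition that 20.9% of all genes met. H2-Ab1 differed by -1.75 ± 0.63 (adjusted p = 0.247), Cd74 by -1.51 ± 0.69 (adjusted p = 0.359) and H2-Eb1 by -1.23 ± 0.53 (adjusted p = 0.328).

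For class I processing, Psmb9 differed by -1.5 ± 0.51 (adjusted p = 0.22), Tap1 by -1.41 ± 0.41 (adjusted p = 0.151) and Psmb8 by -0.87 (adjusted p = 0.367). The small difference of B2m, -0.22 ± 0.09, had an unadjusted p of 0.0261 and an adjusted p of 0.288. Tapbp, at -0.29, and Tap2, at 0.05, had adjusted p-values of 0.661 and 0.953. In this contrast 6 of the 10 genes had an unadjusted p under 0.05, 3 in each class, where 14.0% of all genes did. These p-values rest on the same spread shared over the groups. Since the same KO arrays serve in both comparisons, a high KO 2 enters each of them with opposite sign.

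Leaving out KO 1 again led to calls. The 6 genes called lower in KO_RA, against 0.549% of all genes, were H2-Aa at -3.14 (limma adjusted p = 0.0238), H2-Ab1 at -2.65 (0.0192), Cd74 at -2.53 (0.0303), Psmb9 at -2.17 (0.039), Tap1 at -2.0 (0.00616) and H2-Eb1 at -1.99 (0.0307). Without both KO 1 and WT_RA 3, 6 were called as well, against 0.888% of all genes. Without KO 2 the class II differences were -1.5 for H2-Aa, -0.83 for H2-Ab1, -0.55 for Cd74 and -0.46 for H2-Eb1, and 0 of the 10 genes were called.

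In wild type mice, RA treatment left the antigen presentation genes with differences between -0.14 and 0.33, a median of -0.06, and adjusted p-values of 0.637 and above. None had an unadjusted p under 0.05, where 11.7% of all genes did. The groups did not overlap for B2m, at -0.14 ± 0.09, and for Tapbp, at 0.33 ± 0.28. That is 2 of 10 genes, where 16.6% of all genes met this condition. The SE of Tapbp reflects mainly the KO group, since its SD was 0.03 in WT, 0.04 in WT_RA and 0.80 in KO. With only WT and WT_RA in the fit, 0 of the 10 genes were called. The class II genes differed by at most 0.08 in size, each with an SE above 0.5. Their SDs ran from 0.13 to 0.58 within WT and WT_RA and from 1.53 to 1.98 within KO, which enters that SE.

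Under RA, the genotypes also lay close to each other. Differences between KO_RA and WT_RA ran from -0.33 for Psmb9 to 0.22 for H2-Eb1, with adjusted p-values from 0.765 to 0.985 and 0 of 10 genes under an unadjusted p of 0.05, where 17.8% of all genes were. Tapbp was lower in KO_RA without overlap, by -0.20, a condition met by 25.6% of all genes. The interaction of RA with genotype, that is, the RA effect in KO minus that in wild type mice, gave -2.28 ± 0.90 for H2-Aa (adjusted p = 0.356) and -1.29 ± 0.57 for Tap1 (adjusted p = 0.417). These 2 of the 10 genes had an unadjusted p under 0.05, where 11.7% of all genes did, and the RA effect was therefore not shown to differ between genotypes for any member.

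**Figure D4:**
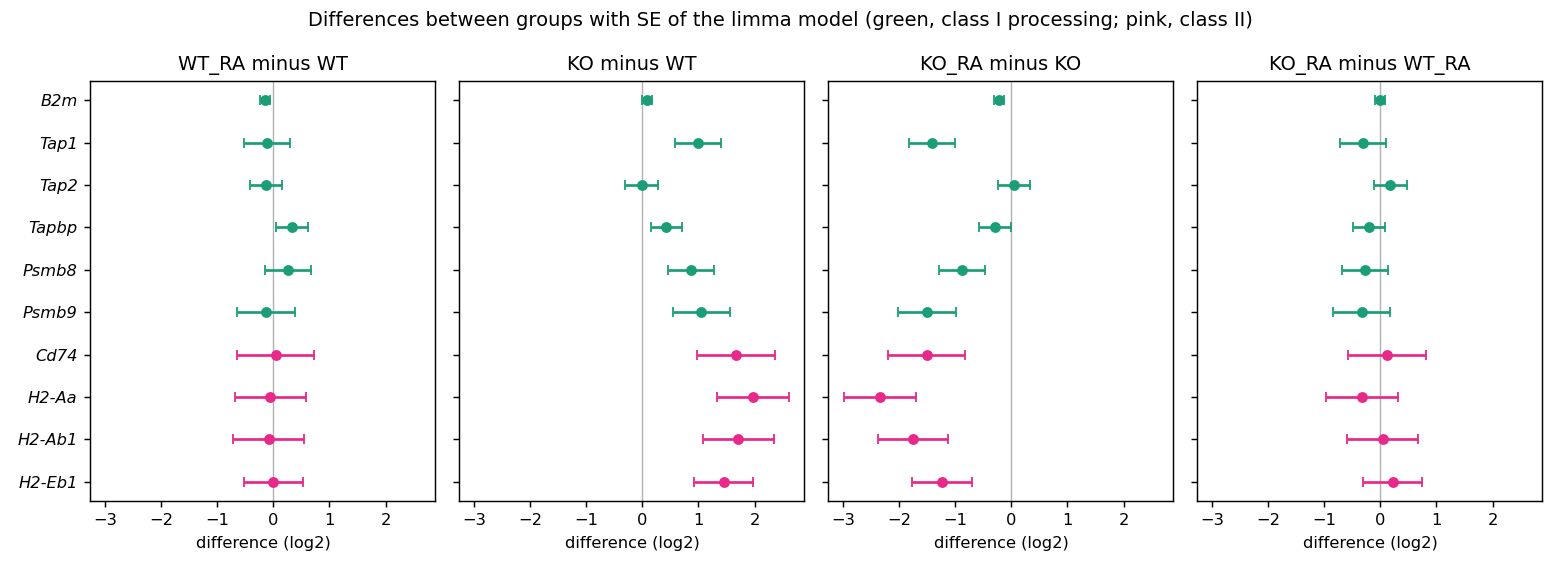
Log2 differences of the 10 genes in the 4 comparisons between groups, with the SE of the limma model. In KO minus WT the class II genes (pink) lie between 1.45 and 1.97, in KO_RA minus KO between -2.34 and -1.23, and in the comparisons without the KO group every gene lies between -0.33 and 0.33.

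Where a gene had further probe sets, these were compared with the one used. The platform carries 18 probe sets for the 10 genes. For KO against WT the further probe sets of H2-Ab1 gave 1.97 and 1.25, that of H2-Aa 1.85 and that of B2m 0.09, all close to the values of the probe sets used. The 3 further probe sets of Tap1 gave 0.04, 0.31 and 0.16 with mean levels of 4.16 to 5.04, near or below the lower quartile of 4.95 over all probe sets. The further probe set of Tapbp gave 0.01 against 0.43 for KO against WT, and 0.39 against -0.29 for RA in KO mice. It read 6.88, 8.68 and 8.13 on KO 1, 2 and 3 and 7.94, 7.97 and 7.76 in WT. KO 1 was its lowest array and WT_RA 3, at 7.31, the next, the arrays with the low Actb 3' control. KO 2 and KO 3 lay above WT on both probe sets. With all arrays, the direction given for Tapbp belongs to 1 probe set.

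The remaining genes of the class I pathway followed the members only in part. Psmb10, the third immunoproteasome subunit, read 8.26, 10.9 and 9.48 on KO 1, 2 and 3 against 8.14, 8.31 and 8.45 in WT. Its order within KO was that of Psmb8 and Psmb9. Unlike theirs, its RA arrays all lay above WT, at 8.91, 8.83 and 8.96 in WT_RA and 8.9, 8.76 and 8.9 in KO_RA. WT_RA exceeded WT by 0.60 ± 0.45 (limma adjusted p = 0.726), without overlap, as for 16.6% of all genes. Between KO and WT, Psmb10 differed by 1.25 ± 0.45 (limma adjusted p = 0.204). The difference was 1.89 (adjusted p = 0.00895) without KO 1 and 0.57 (adjusted p = 0.327) without KO 2. The constitutive subunits that it and its partners replace had means below WT in KO, with Psmb5 at -0.39 ± 0.09 (adjusted p = 0.0729), Psmb6 at -0.18 (adjusted p = 0.307) and Psmb7 at -0.13 (adjusted p = 0.634). Over the 14 constitutive proteasome genes measured, 0 were called, 2 had a positive difference between KO and WT, and the median was -0.07. Without KO 1 the median was 0.01 and Psmb7 turned to 0.04, while Psmb5 stayed at -0.34 (adjusted p = 0.148).

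Among 9 class I heavy chain genes, which encode the peptide-binding chain and whose close copies share sequence, 0 were called and the median was 0.08. H2-K1 read 12.41, 13.38 and 13.07 in KO and 12.61, 12.61 and 12.8 in WT, a difference of 0.27 (adjusted p = 0.468). It was the only one of the 9 called without KO 1, at 0.55, and differed by 0.06 without KO 2. H2-D1 differed by 0.42 (adjusted p = 0.439), and by 0.12 without KO 2. Of 12 other class I processing genes, such as chaperones and trimming peptidases, 0 were called with all arrays, and Psmb10 was the only one called without KO 1. Thus the large KO values in class I were found for the inducible proteasome subunits and Tap1, and less for the light chain and most heavy chains. On KO 2 the deviation from WT was 1.27 for Tapbp, on the probe set used, and 1.01 for H2-D1. B2m and H2-K1 read up to 13.73 and 13.38, near the array maxima of 14.075 to 14.355. Whether their brightness limits their differences was not tested.

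For class II, 16 further pathway genes were measured, 12 with a positive difference between KO and WT, a median of 0.21 and 0 called. Without KO 1 the called genes of this list were H2-DMa, a subunit of the peptide exchange factor, and Ctss, the protease that cleaves the invariant chain. H2-DMa read 5.45, 8.12 and 6.43 in KO against 5.09, 5.1 and 5.36 in WT, a difference of 1.48 (adjusted p = 0.158) that was 0.75 without KO 2. Ciita, the class II coactivator, read 5.13, 5.17 and 4.98 in KO and 4.68, 4.72 and 4.99 in WT, close to the lower quartile of all probe sets, and differed by 0.30 (adjusted p = 0.378). Its KO arrays lay close together, while those of each class II gene spanned more than 3 log2 units.

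H2-Ea, the alpha chain of I-E, is known to carry a promoter deletion in C57BL/6 mice and to give no functional transcript there. Its probe set read between 7.98 and 8.85 on all 12 arrays and differed by 0.20 between KO and WT (adjusted p = 0.582), without the KO 2 and KO 3 values of H2-Eb1. Of 7 costimulation genes and T cell ligands, all had a positive difference in KO (median 0.23), 0 were called with all arrays and Cd274, encoding the inhibitory ligand PD-L1, was called without KO 1. Among 4 non-classical presentation genes, Mr1, which presents microbial vitamin metabolites, was higher in KO_RA than in WT_RA by 0.45 (limma adjusted p = 0.0351). That call was absent in 6 of the 12 fits that left out 1 array, those without WT 2, WT_RA 1, WT_RA 2, KO_RA 1, KO_RA 2 or KO_RA 3.

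The interferon gamma pathway was described next, as a list of 21 measured genes that holds the cytokine, its receptor and signaling genes and many of its known targets. Of these, 19 had a positive difference between KO and WT with a median of 1.14. Called were 2, Irf1 and Gbp2, both higher in KO, where 1.32% of all genes were called. Irf1, a transcription factor of class I genes, read 9.03, 9.88 and 9.43 in KO against 8.43, 8.70 and 8.52 in WT, with no overlap. It rose by 0.89 ± 0.17 (limma adjusted p = 0.0273), a call absent without WT 1, WT 2, WT 3 or KO 3, where the adjusted p reached 0.0989.

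Gbp2, a guanylate-binding protein of the interferon response, read 6.15, 8.13 and 6.79 in KO against 4.59, 5.26 and 5.33 in WT. It rose by 1.96 ± 0.39 (adjusted p = 0.0338), a call absent without WT 1, WT 2, WT 3, KO 3 or KO_RA 3, where the adjusted p reached 0.131. Upstream members had smaller deviations from WT than Gbp2 on KO 2. For the cytokine gene Ifng these were 0.25, 0.0 and 0.24 on KO 1, 2 and 3. Ifng read 3.82 to 4.15 on the 12 arrays, below the lower quartile of 4.95, so a change in it could be missed. The kinase gene Jak1 deviated by -0.92, 0.13 and -0.1 in KO. It deviated by -0.77 on WT_RA 3, which like KO 1 had the low Actb 3' control. The receptor gene Ifngr1 stayed within 0.04 to 0.23 in KO. Without KO 1, and also without both KO 1 and WT_RA 3, 12 of the 21 genes were called, with a median of 1.61. The shares of all genes called in these fits were 1.75% and 2.15%. Without KO 2, Irf1 and Gbp2 were called, with a median of 0.56. The median deviation of the list from WT was 0.19, 2.42 and 0.88 on KO 1, 2 and 3 and between -0.03 and 0.08 in KO_RA.

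Of 16 genes of the type I interferon response, 14 had a positive difference between KO and WT, with a median of 0.52, which was 0.29 without KO 2. Usp18 was the only one called with all arrays, where 1.32% of all genes were. Without KO 1, 4 of the 16 were called, against 1.75% of all genes. Without both KO 1 and WT_RA 3, 5 were called, against 2.15%. Usp18, which removes the ubiquitin-like modifier ISG15 and damps interferon signaling, rose by 2.1 ± 0.33 (limma adjusted p = 0.0112), with 7.84, 8.79 and 8.01 in KO and 5.82, 5.77 and 6.77 in WT. The call was absent without WT 1 or WT 2, at adjusted p-values up to 0.0568. For RA in KO mice 0 of the 21 interferon gamma pathway genes were called, 20 had a negative difference and the median was -0.99. Without KO 1, and also without both KO 1 and WT_RA 3, 7 of the 21 were called. The shares of all genes called in these fits were 0.549% and 0.888%. The median of the list was then -1.53, whereas without KO 2 it was -0.4. In wild type mice under RA the median of that list was 0.11.

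**Figure D5:**
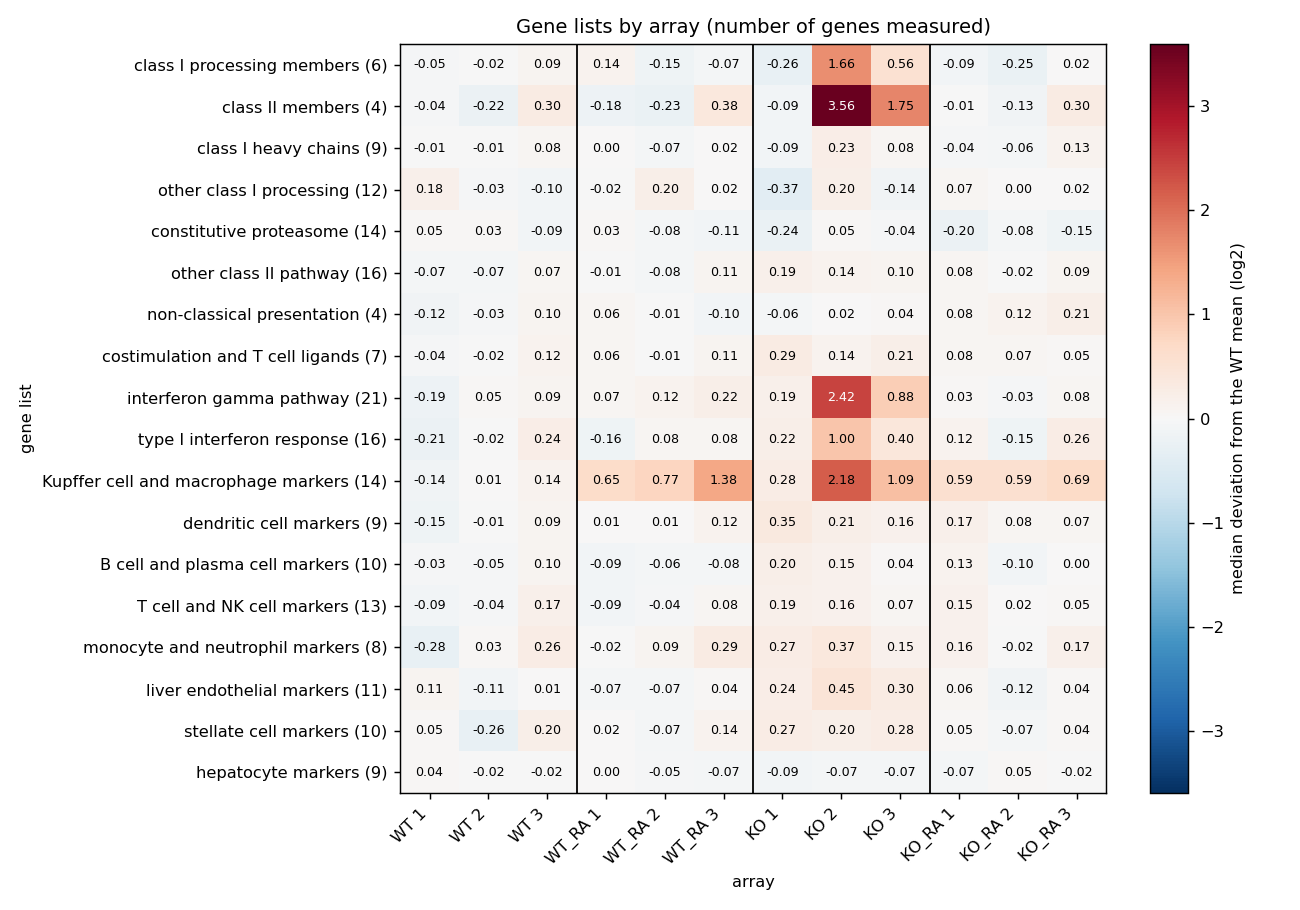
Median log2 deviation from the WT mean of each gene list (rows) on each array (columns), with the number of genes measured in brackets. The class II row reaches 3.56 on KO 2 and 1.75 on KO 3, the interferon gamma pathway 2.42 and 0.88 and the Kupffer cell and macrophage markers 2.18 and 1.09. The last row also stands at 0.65 to 1.38 in WT_RA, where the class II row stays between -0.23 and 0.38.

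Markers of the cells that bear class II molecules were set beside these values. Of 14 Kupffer cell and macrophage markers, 14 had a positive difference between KO and WT with a median of 1.22. With all arrays 0 of these markers were called. Leaving out KO 1 gave 11 calls, against 1.75% of all genes, and leaving out KO 2 gave 0 (median 0.68). Their median deviation was 0.28, 2.18 and 1.09 on KO 1, 2 and 3, the order of the class II genes. The log2 of their summed signal ranged from 11.03 to 11.27 in WT, from 11.77 to 12.65 in WT_RA, from 11.5 to 13.67 in KO and from 11.71 to 11.96 in KO_RA, and 1 of the 14 lay below the lower quartile of all probe sets. The part of these cells in the class II values was not tested.

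In wild type mice given RA, all 14 markers had a positive difference between WT_RA and WT with a median of 0.94, and Cd163, a scavenger receptor of resident macrophages, rose by 1.49 ± 0.19 (limma adjusted p = 0.00299), called in all 12 fits that left out 1 array. The 4 class II genes had a median of -0.02 in the same contrast, with 0 called, and the difference between the lists was not tested. On both lists WT_RA 3 was the highest WT_RA array, with median deviations of 1.38 for the markers and 0.38 for class II. Cd163 was also lower in KO_RA than in WT_RA, by -0.79 (adjusted p = 0.0381), a call absent without WT 2, WT_RA 2, WT_RA 3, KO 3, KO_RA 1 or KO_RA 3. For RA in KO mice, all 14 markers had a negative difference, with a median of -0.53 and 0 called. That median was -0.05 without KO 2 and -0.97 without KO 1, where Cd5l was called, and without WT_RA 3 as well Cd5l and Adgre1 were called.

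Among 9 dendritic cell markers, 9 had a positive difference between KO and WT with a median of 0.23. Cd83, a protein that holds class II molecules at the cell surface, rose by 1.05 ± 0.14 (limma adjusted p = 0.00336) and was called in all 12 fits that left out 1 array. It read 5.99, 5.58 and 6.22 on KO 1, 2 and 3 against 4.91, 4.98 and 4.77 in WT, so that KO 2, the array with the most class II signal, was its lowest KO array. The summed signal of the list lay between 9.25 and 9.34 in KO and between 8.84 and 9.07 in WT. Of the 9 markers, 2 lay below the lower quartile of all probe sets.

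B cell and plasma cell markers had a median difference between KO and WT of 0.13 over 10 genes, with 0 called. T cell and NK cell markers had a median of 0.19 over 13 genes, with 0 called. Of these lists, 1 and 6 genes lay below the lower quartile of all probe sets, where a change could be missed. The summed signals overlapped between KO and WT. They were 8.74 to 9.02 against 8.74 to 8.92 for the first list and 9.22 to 9.48 against 9.0 to 9.32 for the second. Monocyte and neutrophil markers (8 genes, median 0.30), endothelial markers (11 genes, median 0.29), stellate cell markers (10 genes, median 0.25) and hepatocyte markers (9 genes, median -0.06) also had 0 called between KO and WT. The summed signal did not overlap between KO and WT for the endothelial list, at 11.39 to 11.54 against 10.96 to 11.26, nor for the stellate list, at 10.82 to 10.9 against 10.11 to 10.71, and overlapped for the monocyte and neutrophil list, at 9.31 to 10.33 against 8.8 to 9.36. The part of these cells in the values of the antigen presentation genes was not tested. Without KO 1, Plac8 of the monocyte list and Cdh5 and Tek of the endothelial list were called. Hepatocyte markers, which include albumin, summed to between 16.51 and 16.71 log2 units on every array, a sum led by the brightest of them. One of the list, Apob, read 11.23 on KO 1 and 11.3 on WT_RA 3 against 12.87 to 13.28 on the other arrays, the same arrays that had the low Actb 3' control.

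For RA in KO mice, 2 of 11 endothelial markers were called, both lower in KO_RA, against 0.5% of all genes. Tek, the angiopoietin receptor, fell by 0.99 on the log2 scale (limma adjusted p = 0.0184), a call absent without KO 3 or KO_RA 2. Fcgr2b, an Fc receptor that is abundant on liver sinusoidal endothelium, fell by 0.46 (adjusted p = 0.0419) and was called in only 1 of the 12 fits that left out 1 array, that without KO 1.

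Finally, the genes outside the 10 whose levels followed them most closely over the 12 arrays were listed by Pearson's r. For the mean of the class I genes these were Igtp (r = 0.966), Gbp7 (0.958), Cd52 (0.957), H2-K1 (0.956) and Irgm1 (0.955). For the mean of the class II genes they were Gbp2b (0.987), Irgm1 (0.982), H2-DMa (0.98), Fgl2 (0.976) and Igtp (0.972). Igtp and Irgm1 encode immunity-related GTPases and the Gbp genes guanylate-binding proteins, both families that interferon gamma is known to induce.

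Igtp read 9.03, 12.63 and 11.18 on KO 1, 2 and 3 and between 8.33 and 9.5 on the other arrays. Without KO 2 and KO 3, over the remaining 10 arrays, r fell to 0.693 for Igtp and 0.417 for Irgm1 against class I and to 0.742 for Gbp2b and 0.606 for Irgm1 against class II, so the high values rest largely on these arrays. Within the sets, each class II gene followed the other class II genes with r from 0.954 to 0.987, whereas the class I genes ranged from 0.625 for Tap2 and 0.779 for B2m to 0.97 for Psmb8. Without KO 2 and KO 3 these values ran from 0.547 to 0.783 for class II and from 0.172 to 0.777 for class I. Over 12 arrays the class II genes followed the mean of the class I genes nearly as closely, with r from 0.93 to 0.962. Without KO 2 and KO 3 this r ran only from 0.131 for H2-Ab1 to 0.559 for Cd74. All values come from the same 12 arrays and share their normalization.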

How the data were processed

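Affymetrix mouse arrays were hybridized with RNA from 12 livers. The authors deposited log2 values per probe set, for which the submitters' processing notes name RMA and Partek 6.11. The paper's methods name MAS5 for the study's own analysis, but the values have the range of log2 RMA. Of 22690 probe sets, 64 were controls, 20380 had 1 gene symbol, 691 several and 1555 none. The highest-mean probe set represented each of 12393 genes, with no filter on dim signals. Groups and replicate numbers came from the sample titles. One coefficient per group was fitted to all genes and 12 arrays by the lmFit, contrasts.fit and eBayes functions (two-sided) of limma 3.58.1, run under R 4.3.3, and p-values were adjusted by the Benjamini-Hochberg method over all genes within each of 5 contrasts. The fit was tested on simulated data with the same spread of a gene in all groups. That setting does not cover the wide KO spread of most members. The number of arrays limits the precision. Alternatives were a replicate block, further quantile normalization, a filter on dim genes, the mean of a gene's probe sets, only the groups compared, and leaving out arrays. The members, the lists and the tests were chosen with earlier results of these data known. The genes named are the 10 members, up to 4 called genes of each list, a set of reference genes of the pathway and the 5 genes closest to each class. Genes called only without KO 1 were named after their values were seen. Nlrc5, also on the reference list, was not analysed here. Promoter windows are RefSeq's, on GRCm38.p6, and motif matches are descriptions of letters. Sums of marker signals are log2 of summed linear values.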

Additional observations from a re-analysis of the deposited data

How the results depend on the processing

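Of 890 member values under alternative settings, 825 kept direction and call, 25 gained a call and 40 changed sign. The members called ranged over the fits without 1 array from 0 to 7 for KO against WT and from 0 to 6 for RA in KO mice, the calls arising without KO 1, and without WT_RA 3 and KO 1 together they were 6 and 6. In the other 3 contrasts 0 members were called under any alternative run. For RA in wild type mice, fits without 1 array called 47 to 212 genes, with 51 to 217 for KO against WT, 6 to 77 for RA in KO mice, 170 to 599 for RXRα deficiency under RA and 1 to 14 for the difference of RA effects. Without both arrays the counts were 95, 266, 110, 312 and 12. With only the groups compared, 103, 70 and 21 genes were called in the first 3 contrasts. Further quantile normalization gave 107 for RA in KO mice, and the difference of RA effects had 0 genes without dim genes and 6 with the mean of probe sets. Arrays were not paired by replicate number in the main fit. Deviations of same-numbered arrays correlated between -0.4576 and 0.2655, which with 3 arrays per group does not exclude a shared batch. With the replicate block, 98 genes were called for KO against WT and 2 for the difference of RA effects, and 0 members.

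The cause of the sign changes was not tested. Without both arrays, Tap2 became 0.01, Cd74 -0.15 and H2-Eb1 -0.07 for RA in wild type mice. In the same fit Tap2 became 0.42 for KO against WT, -0.37 for RA in KO mice and -0.38 for the difference of RA effects, and H2-Aa 0.01 for deficiency under RA. With the mean of probe sets, Tapbp became 0.05 for RA in KO mice and 0.13 for deficiency under RA, and Tap1 0.0 for the latter. Without 1 array, RA in wild type mice ranged from -0.15 to 0.21 for Cd74, -0.38 to 0.17 for H2-Aa, -0.28 to 0.04 for H2-Ab1, -0.12 to 0.14 for H2-Eb1, -0.43 to 0.02 for Psmb9, -0.19 to 0.0 for Tap1 and -0.32 to 0.01 for Tap2. Tap2 ranged from -0.32 to 0.42 for KO against WT, from -0.37 to 0.37 for RA in KO mice and from -0.24 to 0.5 for the difference of RA effects, and Tapbp from -0.67 to 0.13 for RA in KO mice. For deficiency under RA the ranges were -0.06 to 0.03 for B2m, -0.08 to 0.33 for Cd74, -0.59 to 0.04 for H2-Aa and -0.07 to 0.24 for H2-Ab1.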
